A study of Mus musculus with 28 samples.

Results

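The lysosomal hydrolases and their activators, other than the cathepsins, were followed as a set of 30 genes in mouse brain RNA, out of the 53801 genes of the table. The genes were chosen by symbol and sorted by what their products degrade: 6 act on glycolipids, 7 on glycosaminoglycans, 5 on glycoproteins and glycogen, 6 on other lipids, 4 on peptides, and 2 (Acp2 and Creg1) stood outside these classes. All 28 C57Bl/6J mice were labelled wildtype (WT) or DKO, the latter lacking GRN and TMEM106B, and each received either isotonic saline or AAV(L):bPGRN, giving 4 groups of 7. AAV(L):bPGRN is a liver-directed viral vector for human progranulin fused to 8D3, an antibody fragment directed at the transferrin receptor of the mouse. Mice were injected by the tail vein when 6 weeks old, at 1.3e+13 vector genomes per kg, and one hemibrain with cerebellum and without olfactory bulb was taken 9 to 10 weeks later, at 15 to 16 weeks of age. No group received a vector without progranulin, so the vector and its product cannot be told apart.

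Lysosomal hydrolases are made in the endoplasmic reticulum, tagged with mannose 6-phosphate or carried by other receptors, and delivered to the acidic lysosome, where they take apart glycolipids, sugar chains, proteins and lipids. Activator proteins such as the product of Gm2a lift lipids out of membranes for the enzymes. Loss of single members causes storage diseases of the brain, among them Tay-Sachs disease (HEXA), Krabbe disease (GALC), Niemann-Pick disease type C (NPC2) and neuronal ceroid lipofuscinosis (PPT1 and TPP1). Progranulin is itself delivered to lysosomes, and TMEM106B is a lysosomal membrane protein. Many lysosomal genes carry the palindrome CACGTG near their start, the core of the site bound by TFEB and related factors.

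Promoter windows of 28 of the 30 genes were found in the RefSeq table (build GRCm38.p6), each running from 250 bases before to 50 bases after the transcript start; Galns and Asah1 are named only. CACGTG, which reads the same on both strands, lay in the window of 8 of 28 members (28.6%), against 8.09% of the 27025 genes in the table and 11.8% of the 8666 tested genes that the table holds. The longer TCACGTGA, which contains it, lay in 2 members (7.14%), against 1.12% and 2.3%. Among 24 other lysosomal hydrolases and activators with a window, 20.8% held CACGTG and 12.5% TCACGTGA, and the difference between the lists was not tested. Windows of 3 genes are shown because Gla and Glb1 had the largest differences between genotypes and hold the palindrome, while Npc2, which had the smallest p, does not; capitals mark CACGTG.
Gla, chrX:134600956-134601255, minus strand: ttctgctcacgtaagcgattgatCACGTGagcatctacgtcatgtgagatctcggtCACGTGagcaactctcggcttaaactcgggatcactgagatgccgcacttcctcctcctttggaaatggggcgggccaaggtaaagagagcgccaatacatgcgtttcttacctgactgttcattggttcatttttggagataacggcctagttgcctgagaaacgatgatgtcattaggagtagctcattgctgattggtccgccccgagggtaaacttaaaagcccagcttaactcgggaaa
Glb1, chr9:114400828-114401127, plus strand: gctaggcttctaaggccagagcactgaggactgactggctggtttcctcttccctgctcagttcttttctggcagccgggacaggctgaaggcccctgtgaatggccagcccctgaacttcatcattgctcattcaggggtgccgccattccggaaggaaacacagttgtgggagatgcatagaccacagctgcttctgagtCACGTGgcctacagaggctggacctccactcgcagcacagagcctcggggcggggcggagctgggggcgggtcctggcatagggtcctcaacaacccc
Npc2, chr12:84773063-84773362, minus strand: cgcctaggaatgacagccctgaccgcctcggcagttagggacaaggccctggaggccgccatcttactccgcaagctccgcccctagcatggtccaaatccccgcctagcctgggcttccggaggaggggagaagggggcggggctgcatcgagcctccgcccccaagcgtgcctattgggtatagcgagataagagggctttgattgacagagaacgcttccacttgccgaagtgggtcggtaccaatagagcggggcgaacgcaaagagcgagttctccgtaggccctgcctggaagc

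Gla held 2 copies, which began 227 and 194 bases before the start, and that of Glb1 began 48 bases before it. The other 6 members with the palindrome are shown with 5 bases on each side, to compare what flanks it.
Dpp7: actatCACGTGatgct
Lgmn: tctgtCACGTGgtcca
Naglu: caggtCACGTGgcccg
Sgsh: ccgtgCACGTGaccgt
Gaa: gcgatCACGTGtttga
Arsa: agtgtCACGTGttgtc
They began 73 bases before the start in Dpp7 and in Naglu, 29 in Sgsh, 140 in Gaa and 16 in Arsa. In Lgmn the copy began 49 bases before the inner of its listed starts, and the window of the outer start held none. A match is a description of the letters, and binding was not measured. In DKO saline against WT saline, described below, 3 of 7 tested members with the palindrome (Gla, Glb1 and Lgmn) were higher at an edgeR adjusted p under 0.05. So were 5 of 19 without it (Hexa, Gusb, Man2b1, Npc2 and Tpp1), against 3.61% of all genes. Lgmn counts as a member with the palindrome by its inner start only. By its outer start it would move to the members without it. The difference between members with and without the palindrome was not tested.

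**Figure D1:**
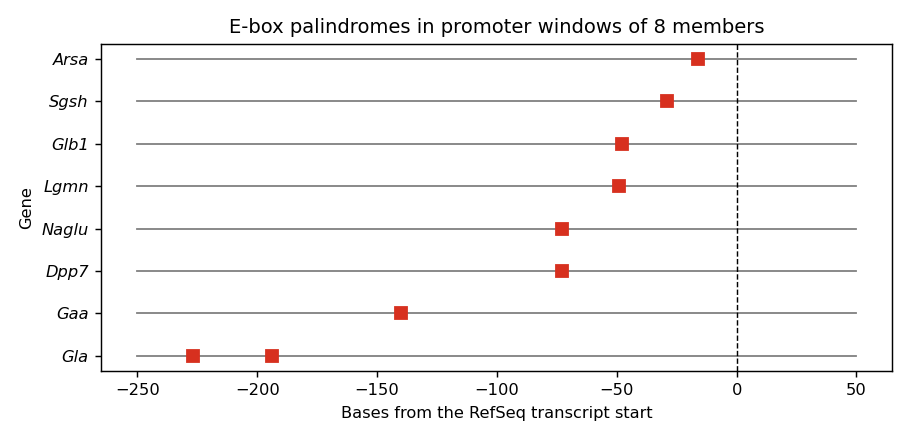
Position of each CACGTG (red squares) in the promoter windows (grey lines) of 8 members, in bases from the RefSeq transcript start (dashed line). All 9 copies lie before the start, from 227 to 16 bases away. For Lgmn the start is the inner of those listed.

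RNA was counted by 3' tag sequencing, with 1 tag per molecule, so that values do not scale with transcript length. Library totals ran from 1164637 to 2389815 counts. Tmem106b was at 74.8 to 147 CPM (counts per 1e6, scaled by TMM factors) in the 14 WT libraries and at 6.51 to 19.8 CPM in the 14 labelled DKO. Grn tags were at 79.8 to 275 CPM in WT saline and at 88.6 to 293 CPM in DKO saline; the sources used here do not say which part of Grn is deleted, and a tag outside it checks nothing. In all, 3 libraries stood apart in regional content: replicate 2 of DKO saline had a striatum list score of -1.46, and replicates 6 of WT saline and 7 of WT AAV had cerebellum scores of -2.78 and -1.82. Each score is the mean log2 difference of the list's genes from WT saline. Pituitary genes were high in replicate 3 of WT saline, WT AAV and DKO saline (summed 1023, 1443 and 2365 CPM). Replicates are separate mice, and fewer cells of a type and less RNA per cell cannot be told apart in such whole-tissue samples.

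The members differed widely in level. Per molecule, Ids, which removes sulfate from heparan and dermatan sulfate, was the highest at 868 ± 115 CPM (SD, n = 7) in WT saline, followed by Npc2, a cholesterol carrier, at 352 ± 46.5 CPM. Arsa, which degrades the myelin lipid sulfatide, and Manba, a beta-mannosidase, had 0 to 7 counts per library and were not tested; their totals over 7 libraries were 18 and 12 counts in WT saline and 20 and 15 in DKO saline. The other 28 passed the filter on low counts. The coefficient of variation between mice of WT saline had a median of 17% over these 28, from 10.3% for Tpp1 to 58.3% for Sgsh, and that of DKO saline a median of 20.3%.

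The first comparison asks how the hydrolase genes differ between DKO and WT mice without the vector. The summed level of the 30 members was 2831 ± 249 CPM in DKO saline and 2384 ± 162 CPM in WT saline (SD, n = 7 each). In the quasi-likelihood test of edgeR, adjusted over 11123 genes by the Benjamini-Hochberg method, 8 of 28 members had higher levels in the DKO saline group at an adjusted p under 0.05 and 0 were lower, against a background of 3.61% of all genes higher and 3.25% lower. At an unadjusted p under 0.05, 17 of 28 members passed in either direction, against 20.9% of all genes. The median log2 fold change of the members was 0.36, against 0.003 over all genes, and 26 of 28 were above 0, against 50.5%. No member had groups without overlap, which held, with DKO saline the higher, for 0.683% of all genes.

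Among the glycolipid enzymes, 3 of 5 tested rose. Hexa encodes the alpha subunit of beta-hexosaminidase, which degrades GM2 ganglioside. Its lowest, median and highest libraries were 58.5, 74.6 and 98.6 CPM among WT saline mice, 68.7, 71.5 and 81.4 in WT AAV, 78.1, 115 and 144 in DKO saline, and 68.6, 71.4 and 93.6 in DKO AAV. DKO saline reached above the other groups and overlapped each of them at its lower end. The log2 fold change of Hexa between the saline groups was 0.61 ± 0.11 (SE, edgeR adjusted p = 0.000423). Glb1, the beta-galactosidase that acts on GM1 ganglioside, had 8.25, 11.1 and 13.9 CPM among WT saline mice, 7.23, 11.7 and 15.5 in WT AAV, 10.9, 19.3 and 28 in DKO saline, and 11.4, 13 and 24.9 in DKO AAV. Its log2 fold change of 0.89 ± 0.20 (edgeR adjusted p = 0.00506) was the largest of the members, and 1 DKO AAV library lay among the high DKO saline libraries. Gla, alpha-galactosidase A, rose by a log2 fold change of 0.73 ± 0.20 (edgeR adjusted p = 0.0226), from 12 ± 2.74 to 19.7 ± 5.56 CPM. Galc, which degrades galactosylceramide of myelin, went from 20.9 to 25.3 CPM (adjusted p = 0.236 by edgeR), and Gm2a from 68.2 to 72.1 CPM (adjusted p = 0.63 by edgeR).

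Of the 7 glycosaminoglycan enzymes, 1 rose. Gusb, beta-glucuronidase, had 21.2, 36.4 and 54.8 CPM as its lowest, median and highest libraries among WT saline mice, 23.7, 31.7 and 43.4 in WT AAV, 30.2, 54.4 and 62.1 in DKO saline, and 24.9, 32.5 and 43.3 in DKO AAV. All but the lowest DKO saline library lay above every vector-treated library, while 2 WT saline libraries were as high. Its log2 fold change was 0.51 ± 0.16 (edgeR adjusted p = 0.0405). The sign held in 3 of 4 batches, and batch 1, with 1 mouse per group, gave -0.262. Galns, a galactosamine-6-sulfatase, had 3.99, 5.63 and 6.75 CPM among WT saline mice, 2.71, 4.4 and 7.5 in WT AAV, 6.25, 7.83 and 13.8 in DKO saline, and 3.22, 5.92 and 9.36 in DKO AAV, and its log2 fold change of 0.48 ± 0.23 did not pass (edgeR adjusted p = 0.232). Naglu, Sgsh, Arsb and Idua had log2 fold changes of 0.40, 0.37, 0.22 and 0.12, with SEs of 0.16 to 0.30, and did not pass. Ids had the lowest value of all members, -0.18 ± 0.096, with 868 CPM in WT saline and 819 CPM in DKO saline (edgeR adjusted p = 0.29).

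Of the 4 tested enzymes of glycoproteins and glycogen, Man2b1 rose. Man2b1, the lysosomal alpha-mannosidase, had 18.6, 23.3 and 27.5 CPM among WT saline mice, 19.6, 23.9 and 29.2 in WT AAV, 24.8, 37.4 and 40.5 in DKO saline, and 19.3, 27.9 and 32 in DKO AAV. The 2 lowest DKO saline libraries fell within the range of the other groups, and the log2 fold change was 0.67 ± 0.13 (edgeR adjusted p = 0.00105). Gaa, which degrades glycogen, had 43.7, 52.8 and 63.1 CPM among WT saline mice, 36.7, 53.7 and 64.4 in WT AAV, 49.1, 56.8 and 78.1 in DKO saline, and 38.5, 50.3 and 77.9 in DKO AAV; the 4 groups overlapped (log2 fold change 0.26 ± 0.13, edgeR adjusted p = 0.258). Fuca1, alpha-fucosidase, and Neu1, a sialidase, had log2 fold changes of 0.11 ± 0.12 and -0.011 ± 0.11.

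Of the 6 lipid genes, Npc2 rose, with the smallest p of all members. Npc2 had 285, 351 and 415 CPM among WT saline mice, 312, 342 and 373 in WT AAV, 412, 505 and 815 in DKO saline, and 326, 342 and 381 in DKO AAV. DKO saline lay above both vector-treated groups without overlap and touched WT saline only at its lowest library. The log2 fold change was 0.67 ± 0.10 (edgeR adjusted p = 5.10e-05). Smpd1, acid sphingomyelinase, had 65, 80.7 and 99.8 CPM among WT saline mice, 69.9, 80.1 and 110 in WT AAV, 74.6, 103 and 125 in DKO saline, and 76.4, 85.8 and 110 in DKO AAV, with overlap throughout (0.29 ± 0.11, edgeR adjusted p = 0.11). Asah1 (acid ceramidase), Lipa (acid lipase), Ppt1 (palmitoyl-protein thioesterase) and Pla2g15 (a phospholipase A2) had log2 fold changes of 0.39, 0.34, 0.26 and 0.11 and did not pass. The 3' end of Ppt1 overlaps Cap1 (2299 counts) on the opposite strand. The sources used here do not give the strand setting of the counting, and the level of Ppt1 is uncertain for that reason.

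Of the 4 peptidases, 2 rose. Lgmn, an asparaginyl endopeptidase, had 79.7, 93.1 and 135 CPM among WT saline mice, 86.8, 95.4 and 120 in WT AAV, 109, 145 and 221 in DKO saline, and 92.7, 118 and 145 in DKO AAV (log2 fold change 0.62 ± 0.12, edgeR adjusted p = 0.000807). The 4 highest DKO saline libraries lay above every library of the other groups, and the other 3 overlapped them. Tpp1, tripeptidyl peptidase, had 82.5, 93.1 and 113 CPM among WT saline mice, 72.3, 88.2 and 108 in WT AAV, 101, 121 and 128 in DKO saline, and 91.5, 110 and 115 in DKO AAV (0.32 ± 0.093, edgeR adjusted p = 0.0318). Dpp7 and Scpep1 had log2 fold changes of 0.44 and 0.37, with edgeR adjusted p of 0.0542 and 0.106. Outside the classes, Creg1, an endolysosomal glycoprotein, had 73.2, 97.5 and 143 CPM among WT saline mice, 74.6, 95.4 and 112 in WT AAV, 104, 134 and 224 in DKO saline, and 82.3, 101 and 121 in DKO AAV (0.42 ± 0.14, edgeR adjusted p = 0.0601). Acp2, an acid phosphatase whose 3' end overlaps Ddb2 (229 counts) on the opposite strand, had 41.8, 54.4 and 61.3 CPM among WT saline mice, 39.8, 52.5 and 57.1 in WT AAV, 41.4, 50.1 and 73.3 in DKO saline, and 33.5, 49.7 and 61.1 in DKO AAV. Its groups overlapped throughout (log2 fold change 0.077 ± 0.13).

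**Figure D2:**
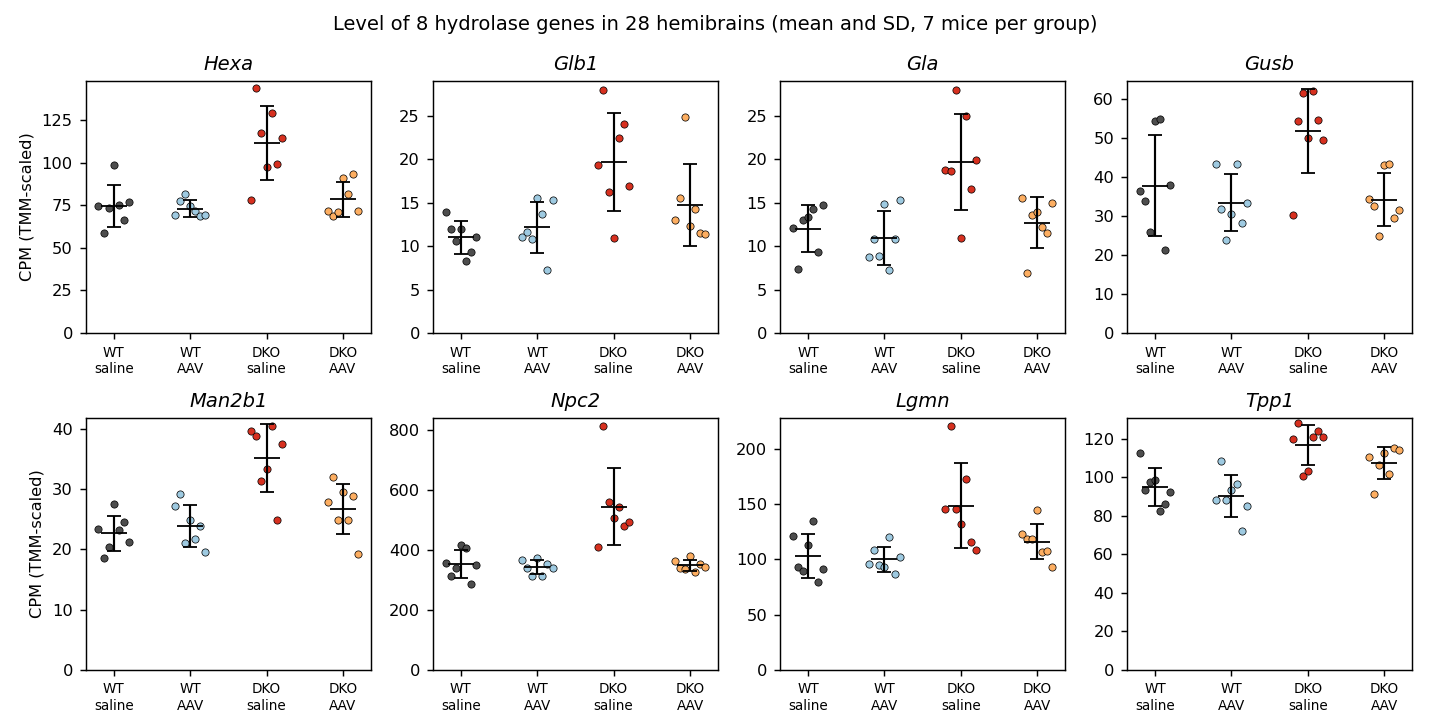
CPM (TMM-scaled) of the 8 members called higher in DKO saline, by group; points are mice, the long bar is the mean and the error bar the SD (n = 7). For Npc2, every DKO AAV library (326 to 381 CPM) lies below every DKO saline library (412 to 815 CPM).

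Within batches the higher level of Npc2 gave log2 differences of 0.21, 1.32, 0.446 and 0.673 in batches 1 to 4, and that of Hexa 0.0659, 1.12, 0.445 and 0.611. Batches 1, 2 and 3 held 1 DKO saline library each and batch 4 held 4. WT saline had 1 library in batch 1 and 2 in each of the others. The largest differences came from batch 2, whose only DKO saline library was replicate 2. That library was the highest of its group for 11 of 28 members and replicate 5 for 10. Without replicate 2 the number of members called higher was 5 (Hexa, Glb1, Man2b1, Npc2 and Lgmn) and the median was 0.28. Npc2 then had a log2 fold change of 0.51 ± 0.084. The share of all genes called in that fit is not given here, so a general loss of calls cannot be told apart. Without all 3 low-region libraries, replicate 2 among them, 5 members were higher, against 2.89% of all genes.

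The second comparison asks how the same genes differ between vector-treated and saline-treated DKO mice. The summed level of the 30 members was 2357 ± 82.7 CPM in DKO AAV (n = 7), against 2831 ± 249 CPM in DKO saline. Of 28 members, 4 fell and 0 rose, against a background of 2.18% of all genes lower and 0.818% higher, and 15 passed at an unadjusted p under 0.05, against 19.1%. Npc2 fell by 0.65 ± 0.10 on the log2 scale (edgeR adjusted p = 0.000289) and was the only member whose groups did not overlap, which held for 0.396% of all genes. Hexa fell by 0.51 ± 0.10 (edgeR adjusted p = 0.00774), Gusb by 0.56 ± 0.15 (edgeR adjusted p = 0.034) and Lgmn by 0.39 ± 0.11 (edgeR adjusted p = 0.0475). Creg1, Man2b1, Gla and Dpp7 came next, with log2 fold changes of -0.45, -0.40, -0.62 and -0.44 and edgeR adjusted p of 0.0572 to 0.0614. The median was -0.30, against -0.001 over all genes. The 4 members above 0 were Neu1 (0.18 ± 0.11), Arsb (0.11 ± 0.15), Pla2g15 (0.058 ± 0.18) and Asah1 (0.032 ± 0.16), none of which passed. By class, 1 of 5 glycolipid, 1 of 7 glycosaminoglycan, 1 of 6 lipid and 1 of 4 peptide genes fell. This comparison and the first share the DKO saline libraries, so a library that is high there moves both. Ages differed within batch 4, at 16 weeks for its 4 DKO saline libraries and 15.5 for the rest, while within batches 1 to 3 the ages were equal. With age as a term, 3 members were called lower (Dpp7, Hexa and Npc2), without Gusb and Lgmn, against 2.1% of all genes. In the first comparison 7 were then higher, with Dpp7 and without Gusb and Tpp1, against 4.37% of all genes. Without DKO saline replicate 2, 1 member (Npc2, -0.50 ± 0.082) was called lower and the median was -0.16. The share of all genes in that fit is not given here either. Without all 3 low-region libraries 1 member was lower, against 0.556% of all genes.

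**Figure D3:**
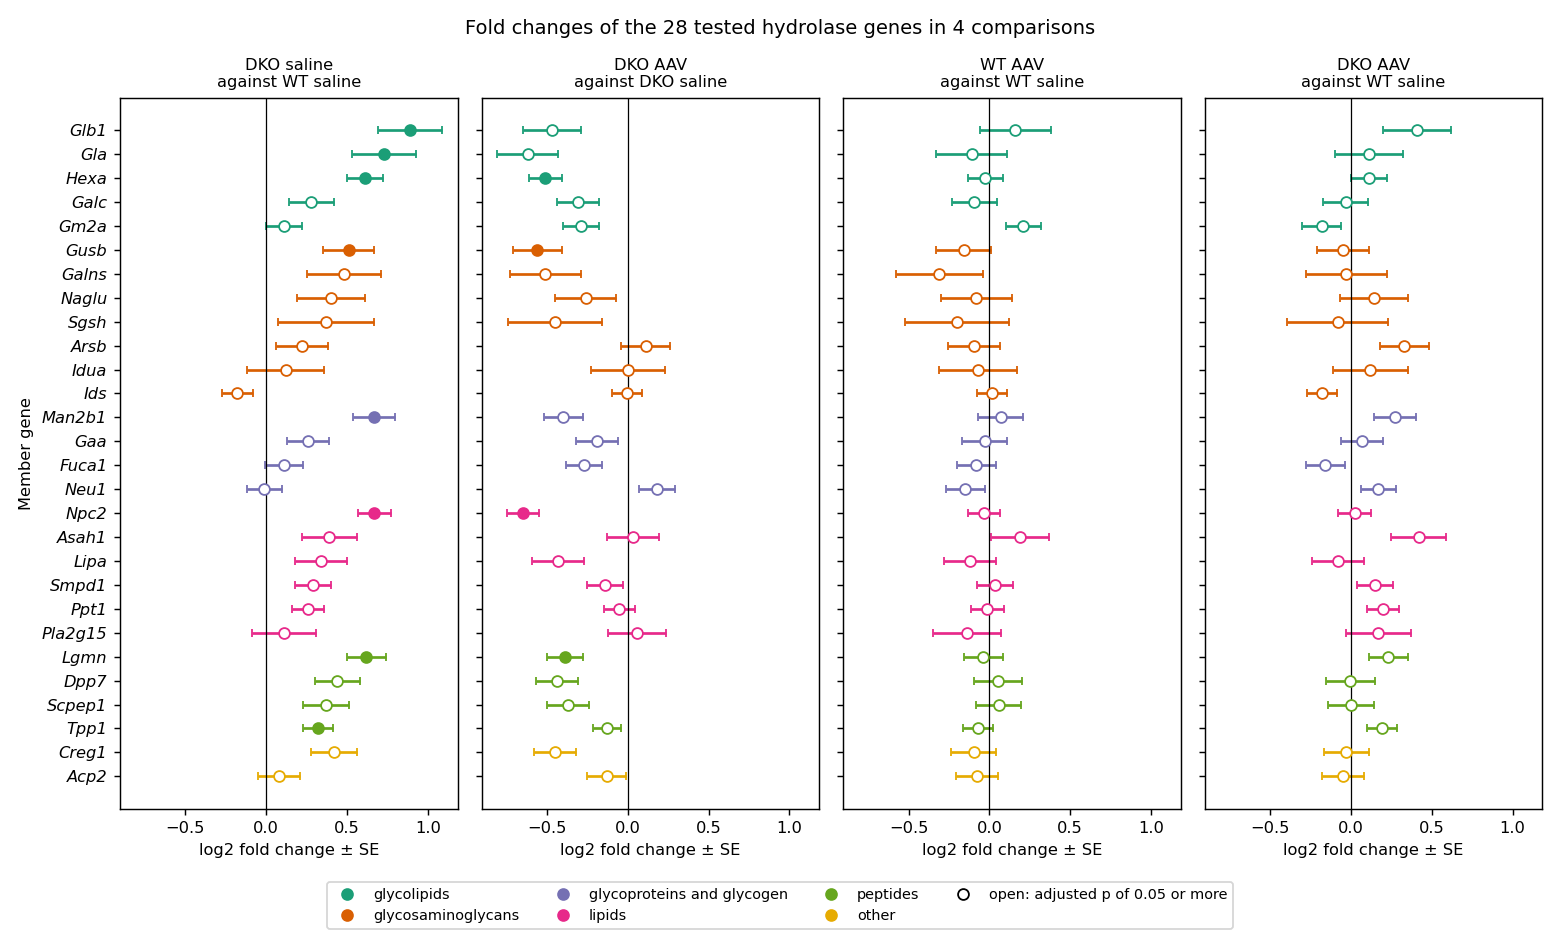
Log2 fold change with SE of the 28 tested members in 4 comparisons, in the order of substrate (colour); filled points passed an edgeR adjusted p of 0.05. The first 2 panels share the DKO saline mice: 8 points are filled on the right of 0 in the first panel and 4 on the left in the second.

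Treated WT mice were compared with saline WT mice to ask whether the vector moved these genes without the double knockout. By edgeR, 0 of 28 members were called, 0 passed at an unadjusted p under 0.05, and DESeq2 and limma called 0 as well; over all genes 0% were called and 2.27% had an unadjusted p under 0.05. The median log2 fold change was -0.07, from -0.31 for Galns to 0.21 for Gm2a. For Npc2 the fitted value of -0.032 had an interval of 2 SEs on either side of -0.23 to 0.17, and for Hexa the interval was -0.25 to 0.20. In DKO AAV against WT saline, 0 of 28 members were called by edgeR, against 1.45% of all genes higher and 3.79% lower; 4 passed at an unadjusted p under 0.05, against 19.2%. DESeq2 called 0 of the 21 members to which it gave an adjusted p, and limma 0. The median was 0.09, and the interval for Npc2 was -0.18 to 0.23. Glb1 was at 0.41 ± 0.21 and Asah1 at 0.42 ± 0.17, with edgeR adjusted p of 0.269 and 0.162. Scaling by library totals alone called 5 members higher in DKO AAV than in WT saline (Asah1, Lgmn, Man2b1, Ppt1 and Tpp1) and 8.96% of all genes. It moved the median over all genes in this comparison to 0.15 and that of the members to 0.22. In DKO AAV against WT AAV, the median log2 fold change of the members was 0.13. Of 28 members, 23 were above 0, against 51% of all genes. At an unadjusted p under 0.05 by edgeR, 7 passed, against 20.7%. By adjusted p, 0 were called higher, against 1.97% of all genes. The 1 called lower (3.57%, against 3.94% of all genes) was Gm2a, the GM2 activator. Its level was 59.9 ± 8.66 against 78.4 ± 10.1 CPM (n = 7 each, log2 fold change -0.39 ± 0.11, edgeR adjusted p = 0.0357). This call was lost in 15 of 45 alternatives.

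The difference of the vector effect between DKO and WT mice was tested as an interaction. By edgeR 0 of 28 members and 2 of 11123 genes (0.018%) were called lower; 9 members had an unadjusted p under 0.05, against 11.4% of all genes. Npc2 had the smallest p among members (log2 difference -0.62 ± 0.14, edgeR adjusted p = 0.112). It passed with DESeq2 (adjusted p = 0.0107, with 25 of 28 members given none), without the count filter, with age as a term and without DKO saline replicate 1, while limma called 0 members. In the main edgeR fit, the vector effect was thus not shown to differ between the genotypes for any member, Npc2 included. For Npc2 the outcome depended on the settings.

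**Figure D4:**
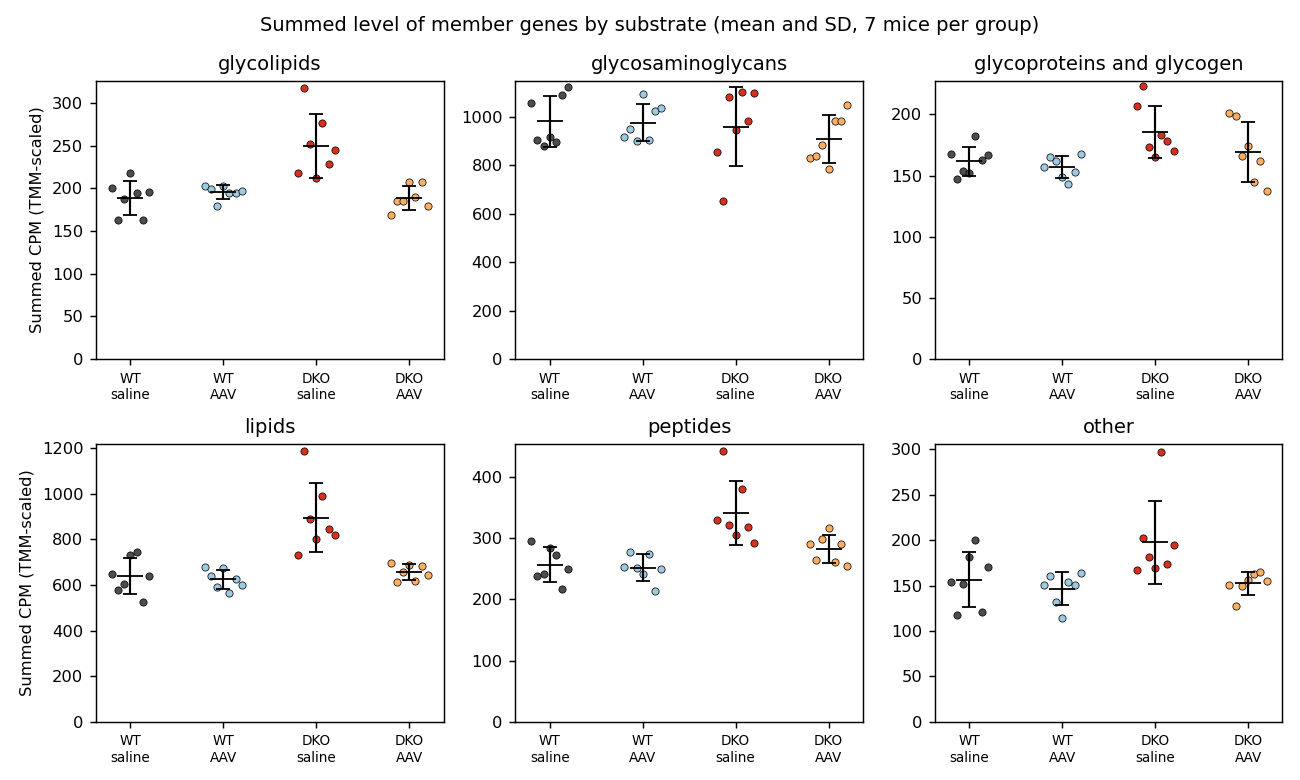
Summed CPM (TMM-scaled) of the member genes of each substrate class by group; points are mice, the long bar is the mean and the error bar the SD (n = 7). Glycolipid genes sum to 250 CPM in DKO saline and to 189 in both WT saline and DKO AAV, while glycosaminoglycan genes, which Ids dominates, sum to 960 and 981 CPM in DKO saline and WT saline.

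Microglia are rich in lysosomal enzymes, so their markers were read beside the members. The list of 21 microglia genes, none of which is a member, had 13 genes higher for DKO against WT saline mice (median log2 fold change 0.62). In DKO AAV against DKO saline 11 were lower (median -0.55). Over all genes, 3.61% were higher in the first and 2.18% lower in the second. Genes called in both included C1qa, C1qb, C1qc, Tyrobp and Trem2. The rest of the list was not called in the first comparison, and its means went both ways. P2ry12 was at 27.7 ± 3.99 CPM in WT saline, 26.8 ± 6.18 in DKO saline and 36.1 ± 4.9 in DKO AAV. Mean levels of Tmem119, Siglech and Selplg were 9.55, 11.4 and 16.5 CPM in WT saline and 8.38, 9.43 and 16.1 in DKO saline. Those of Csf1r, Itgam, P2ry13 and Olfml3 were 91.1, 44, 6.62 and 6.68 CPM in WT saline and 103, 49.3, 9.52 and 8.23 in DKO saline. The summed level of the list ran from 856 to 1334 CPM in WT saline, 936 to 1126 in WT AAV, 1481 to 2572 in DKO saline and 1089 to 1330 in DKO AAV. No marker was at 0 in all libraries of a group. With the microglia score as a term, 0 of 28 members were called in either comparison, the medians became 0.15 and -0.15, and over all genes 8 were called higher and 9 lower in the first and 0 in the second. The largest member values were then Glb1 (0.71 ± 0.39) and Pla2g15 (-0.82 ± 0.32) in the first comparison. The score separates DKO saline from WT saline mice (0.32 to 0.78 against -0.23 to 0.28), without overlap. Its part in the hydrolase differences was not tested.

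Markers of other brain cells also differed. The summed level of 12 oligodendrocyte genes was 9494 ± 2165 CPM for WT saline mice, 8682 ± 1780 for WT AAV, 6735 ± 1843 for DKO saline and 6663 ± 1034 for DKO AAV (SD, n = 7 each). Between the saline groups, DKO mice had 1 of these 12 genes lower (Mobp), 2 of 12 astrocyte genes higher (Gfap and Aqp4), 2 of 12 neuron genes lower (Rbfox3 and Nefl) and 0 of 10 endothelial genes called. Relative to DKO saline, the DKO AAV mice had 2 astrocyte genes lower (Gfap and Aldoc) and 1 neuron gene higher (Rbfox3), and 0 oligodendrocyte or endothelial genes were called. Over all genes, 3.61% were higher and 3.25% lower between the saline groups, and 0.818% and 2.18% in DKO AAV against DKO saline. The part of these cells in the hydrolase differences was not tested.

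**Figure D5:**
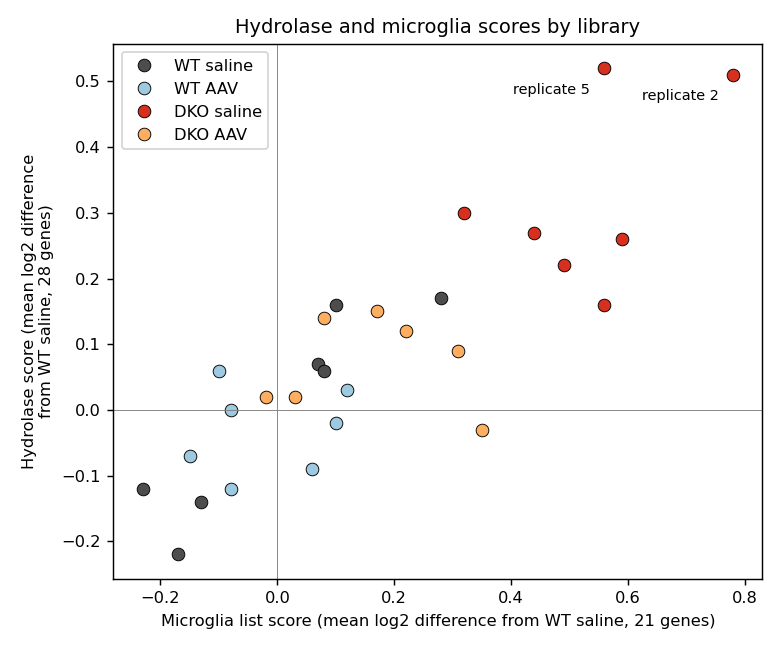
Hydrolase score against microglia score in each of 28 libraries; each score is the mean log2 difference of its genes from WT saline. The 7 DKO saline libraries lie at 0.32 or higher on the microglia axis and at 0.16 or higher on the hydrolase axis, with replicates 2 and 5 at the top.

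Other hydrolases and activators, none of them a member, were read for comparison. Of 26 tested, 10 were higher in the first comparison (median 0.33), against 3.61% of all genes. In DKO AAV against DKO saline 4 were lower, against 2.18%. This list was not free of cathepsins, as it holds Ctsa, cathepsin A, which protects Glb1 and Neu1 in a complex. Ctsa rose from 47.8 ± 8.24 to 77.8 ± 21.6 CPM (log2 fold change 0.75 ± 0.13, edgeR adjusted p = 0.000297). In DKO AAV it was at 55.6 ± 6.08 CPM. Rnaset2a, a ribonuclease whose reads can be shared with its near copy Rnaset2b, rose by 0.81 ± 0.16 (edgeR adjusted p = 0.001). In DKO AAV against WT saline 3 of the 26 were higher, all among those 10, whereas 0 of the 28 members were called; this difference between the lists was not tested.

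Sex was a term of the same fit. In females against males, 0 of 28 members were called by edgeR, with 0 at an unadjusted p under 0.05 (4.01% of all genes), against 0.018% of all genes higher and 0.027% lower; DESeq2 and limma called 0. The median log2 fold change was -0.01, and Hexa had the smallest p (-0.13 ± 0.08, edgeR adjusted p = 1).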

How the data were processed

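Per the labels' protocols, RNA from frozen powder of a hemibrain was made into QuantSeq 3' mRNA libraries (FWD) whose molecular identifiers served to remove PCR duplicates. The submitters' processing notes name edgeR 3.40.2, R 4.2, STAR, FastQC 0.11.5 and MultiQC 1.0, and the build GRCm38.p6; they do not name the counting program, its strand setting or the annotation. The authors' raw counts, as deposited, hold 2 significant digits or fewer, which moves a value of 100 or more by up to 4.762%. The deposited normalized CPM is a signal the authors scaled by library total and a factor, and it served one alternative. Per the file headers, the deposited sample sheet also gives a normalization factor, a ratio the authors computed per library. It also holds the RNA integrity number (RIN), a score from a TapeStation per the labels' protocols. RIN was 8.3 to 9.7 in DKO AAV and 9.0 to 9.7 in DKO saline. In WT AAV it was 9.1 to 9.8 and in WT saline 9.1 to 9.9. Symbols were matched by gene ID for 53620 of 53801 genes.

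edgeR 4.0.16 in R 4.3.3 fitted the counts with TMM, filterByExpr (minimum count 10, minimum total 15; 11123 genes kept) and quasi-likelihood models in which group, sex and batch were terms, over 28 libraries, with Benjamini-Hochberg adjustment at 0.05. The SE is the log2 fold change divided by the square root of F; glmQLFTest raises the p of genes below the Poisson bound, Neu1 among them. DESeq2 1.42.0 and limma 3.58.1 were alternatives. On simulated counts for DKO saline against WT saline over 11123 genes, 100 of 100 genes changed by log2 1.0 were recovered. Of 100 changed by 0.5, 43 were, with 7 false calls. The changed genes were drawn only from those with higher expected counts. All genes had a common dispersion, without effects of batch, sex, regional content or rounding. The recovery therefore does not apply to members with low counts, such as Galns, Idua, Naglu and Sgsh. Replicate numbers follow accession order and pair nothing. Library totals ran from 1164637 to 2389815; in all 84 within-group pairs the libraries differed by more than sampling noise. All 30 members are named, the 2 of each class with the smallest p by library values, and, of the 4 other hydrolases with the smallest p, 2, the rest not being reported here; Gla and the members called elsewhere were added after their values were seen. The members and lists were chosen with earlier results of these data known.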

Additional observations from a re-analysis of the deposited data

Results flagged for a closer look

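Of 124 groups of 7 libraries screened, 6 held 1 library whose gap to its nearest neighbour exceeded 0.568 of the group's range; chance flags about 1 group in 20. In DKO saline, replicate 2 was the highest for Npc2 at 815 CPM (next 559) and for Dpp7 at 38.8 CPM (next 26.3), replicate 5 was the highest for Creg1 at 224 CPM (next 145), and replicate 1 was the lowest for Gusb at 30.2 CPM (next 49.5). In DKO AAV, replicate 3 was the highest for Glb1 at 24.9 CPM (next 15.6) and replicate 6 for Naglu at 19.4 CPM (next 13).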

How the results depend on the processing

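No paired analysis was possible because the labels carry no replicate numbers; batch is a term of the fit. In DKO saline against WT saline, 8 members were higher, against 3.61% of all genes. With library totals 13 were (8.9% of all genes, with a median over all genes of 0.12). With the microglia score as a term 0 were (median 0.15, 0.0719% of all genes). The count was 5 with the compared groups alone (1.83%), without the low-region libraries (2.89%) and with log2 RNA concentration (1.82%). The last was chosen after seeing the data. Without batch 2 it was 3 (1.2%). With RIN as a term it was 7 (3.19%), without Gusb. Leaving out 1 library gave 5 to 10 (medians 0.28 to 0.39). Shares of all genes are not given for the fits that leave out 1 library, here and below. A general change in the number of calls cannot be told apart there. In DKO AAV against DKO saline, 4 were lower, against 2.18% of all genes. The count was 2 with limma (1.36% of all genes), group only (1.62%) and without batch 3 (0.702%). Without the count filter 7 were lower (1.64%), and with the microglia score 0 were (median -0.15, 0%). The count was 1 without the low-region libraries (0.556%), without batch 2 (0.18%) and without batch 4 (0.708%). With RIN as a term it was 5 (2.49%). Leaving out 1 library gave 1 (DKO saline replicate 2) to 7 (DKO saline replicate 1), with medians -0.36 to -0.16. In DKO AAV against WT saline, library totals gave 5 higher (8.96% of all genes), and leaving out 1 library gave medians 0.01 to 0.11. With RIN as a term 0 were called there and the median was 0.02. By edgeR 0 members then passed at an unadjusted p under 0.05, against 1978 of 11123 genes. In DKO AAV against WT AAV, 0 were higher, against 1.97% of all genes. With library totals 5 were (median 0.24, 6.91% of all genes), and with the microglia score 2 were (median 0.01, 4.8%). The count was 1 without the filter (1.48%), with the compared groups alone (3.29%) and without the low-region libraries (3.03%). The 1 lower member, Gm2a, was lost with library totals, no filter, group only, without batch 1, 3 or 4 and with log2 RNA concentration (0). Leaving out 1 library gave 0 to 2 higher and 0 to 1 lower (medians 0.11 to 0.15). For the difference of the vector effects, 1 was lower with DESeq2 (0.117% of all genes), no filter (0.317%) and age as a term (0.207%). Leaving out 1 library gave 0 to 1 (medians -0.31 to -0.14). The median of -0.21 was -0.36 without batch 3, -0.12 without batch 2 and -0.11 with the microglia score. The cause was not tested. No call reversed. Of 45 alternatives, the call in the first comparison was lost in 1 for Hexa, Man2b1 and Npc2, 2 for Glb1 and Lgmn, 11 for Gla, 16 for Tpp1 and 19 for Gusb, and in the second in 1 for Npc2, 5 for Hexa, 16 for Gusb and 26 for Lgmn. The lowest counts per library among tested members were those of Galns (4 to 22), Idua (4 to 23), Naglu (5 to 48) and Sgsh (6 to 47).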
